A study of Mus musculus with 18 samples.

Results

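The genes described are the 4 neurofilament subunit genes of the mouse, Nefl, Nefm, Nefh and Ina, together with Prph, which encodes peripherin. They were chosen by gene symbol alone, which gave 5 of 18191 genes and 11 of 45026 probe sets on the array. Nefl has 2 probe sets, Ina 3 and Prph 4, while Nefm and Nefh have 1 each. Every gene is led by the probe set that read highest in the mean of all 18 arrays, and the remaining probe sets are reported beside it.

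RNA was measured on Affymetrix whole-genome mouse arrays, 18 in all, in a culture model of spinal muscular atrophy, a motoneuron disease caused by too little of the Smn protein. Motoneurons came from the spinal cords of mouse embryos at E12.5, mid-gestation, and were selected on dishes coated to catch the p75 receptor (panning). They grew for 7 days in microfluidic chambers, which lead axons through fine channels into a compartment of their own. RNA was taken from the somatodendritic side (cell bodies and dendrites) and from the axonal side, and was amplified linearly in 2 rounds. Each compartment has 3 groups of 3 arrays. The wild-type groups were left without virus, the empty vector groups received a lentivirus without a hairpin, and the Smn knockdown groups received a lentivirus carrying a short hairpin RNA against Smn. All 6 groups had BDNF at 20 ng/ml on the axonal side, which draws axons through the channels, and for survival they had CNTF on either side at 5 ng/ml. No strain and no time other than day 7 is given. Whether the 3 arrays in each group stem from separate cultures is not stated, so p-values measure the spread between arrays, which may be technical. Knockdown arrays were titled in a different style from control arrays, and a handling difference that went with it cannot be told apart from the knockdown.

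Neurofilaments are the intermediate filaments of neurons. The light chain, from Nefl, forms the core of the filament and is needed by the medium chain (Nefm) and the heavy chain (Nefh), whose long tails project from it and are heavily phosphorylated in axons. Alpha-internexin, from Ina, is a further subunit that is made early in neuronal development, before the triplet of chains reaches its adult amounts. Peripherin is a relative of vimentin found mainly in neurons that send axons to the periphery, motoneurons and sensory neurons among them, where it can assemble with the neurofilament chains. Neurofilaments set the calibre of large axons, and they accumulate in motoneurons in several motoneuron diseases. Their proteins are carried slowly along the axon from the cell body.

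The cells were checked against marker genes. The level that 95% of 147 probe sets for olfactory receptors and similar genes stayed under was taken as the background of an array, and a gene counts as above background for a group if all 3 arrays exceeded this level. All 10 pan-neuronal markers measured were above background on every somatodendritic array, but only 1 of 9 markers of cholinergic motoneurons was (Foxp1), and 5 of the 9 were below background on all of these arrays. Chat, which makes acetylcholine, read between 5.52 and 6.16 on the log2 scale on the 18 arrays and was below background on each. Slc18a3, the vesicular acetylcholine transporter, and Mnx1, a transcription factor that defines motoneurons, were below background on all 18 arrays as well. Isl2 exceeded background on 7, Isl1 on 3 and Lhx3 on 2 of the 18 arrays, and Isl2 did so on every axonal empty vector array. Of 5 sensory neuron markers measured, 3 were above background on every somatodendritic array, and Tac1, which encodes substance P, read at least 11.16 on every array. The other markers of that list, Avil and Scn10a, were each above background on 1 of the 18 arrays. The labelled motoneuron identity is therefore not consistently visible in the cholinergic motoneuron markers on these arrays. Between 10396 and 11369 genes were above background on the somatodendritic arrays. On the axonal arrays the number was smaller, 8916 to 10046 for wild-type, 7071 to 10015 for empty vector and 6120 to 7312 for the knockdown. Across genes, somatodendritic arrays of the same group had r of at least 0.994, and axonal knockdown arrays had r of 0.744 to 0.795. To check the axonal side, 6 noncoding RNAs retained in the nucleus were read, and 4 were above background on all 18 arrays. Their mean was 10.14, 10.43 and 10.76 in wild-type, empty vector and knockdown cell bodies and 10.15, 10.27 and 9.83 in axons. In axons 1, 1 and 2 of them were called lower and none higher, where 29.1%, 42% and 61.7% of all genes passed. The part of cell body RNA in the axonal readings was not tested.

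The knockdown itself could not be read from the arrays. Smn1 has 1 probe set, which was above background on 1 of 18 arrays (axonal empty vector replicate 1, at 7.01). The somatodendritic knockdown arrays read 4.99, 5.20 and 4.99 for Smn1, against 5.20, 5.02 and 5.38 with empty vector and 5.12, 4.93 and 4.86 in wild-type. The axonal knockdown arrays read 5.76, 5.23 and 4.96, those with empty vector 7.01, 5.26 and 5.66, and the wild-type ones 5.70, 5.54 and 5.72. Groups are called by their labels below.

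In the somatodendritic compartment the filament genes moved in opposite directions with the knockdown. Nefl and Nefm fell by about the same amount against empty vector, Ina rose, and Nefh rose by an amount close to the threshold. Prph, at 0.19 on the log2 scale below empty vector in the mean, did not pass. Of the 5 genes 4 passed an adjusted p of 0.05 (limma, adjusted over all 18191 genes), 2 of them higher and 2 lower. Over all genes 28% passed this comparison. All 4 called genes had arrays that did not overlap, as had 19.6% of all genes in the higher and 23.6% in the lower direction. The median difference of the 5 genes was -0.19 on the log2 scale, beside -0.019 over all genes.

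Nefl (light chain, probe set 1426255_at) read 12.55, 12.54 and 12.37 on the knockdown arrays, 13.00, 12.95 and 12.91 with empty vector, and 12.73, 12.82 and 12.89 in wild-type. All 3 knockdown arrays were below all 6 control arrays. The means were 12.49 ± 0.10 (SD, n = 3), 12.95 ± 0.04 and 12.81 ± 0.08. Against empty vector the log2 difference was -0.46 (SE 0.09, limma adjusted p = 0.00144), which is 1.38-fold lower. Against wild-type it was -0.32 (SE 0.09, adjusted p = 0.0103), or 1.25-fold lower. The second probe set, 1454672_at, gave -0.30 (adjusted p = 0.0249) and -0.48 (adjusted p = 0.00103). The knockdown comparisons share their knockdown arrays, so they are not independent. Empty vector against wild-type was not called for Nefl, and its probe sets pointed in opposite directions there, at 0.14 (adjusted p = 0.433) and -0.18 (adjusted p = 0.361).

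Nefm (medium chain, 1422520_at) read 9.79, 9.91 and 9.76 on the knockdown arrays and 10.31, 10.35 and 10.19 with empty vector, and the groups did not overlap. The log2 difference was -0.46 (SE 0.12, adjusted p = 0.0109), again 1.38-fold lower. The wild-type arrays read 9.84, 9.52 and 10.01, with values on both sides of the knockdown arrays, and the difference of the means was 0.03 (95% interval -0.23 to 0.28, adjusted p = 0.881). The fall of Nefm was thus measured against empty vector and not against wild-type. With empty vector Nefm stood 0.49 above wild-type (SE 0.12, adjusted p = 0.0564), with no overlap of the arrays, a separation found in 8.05% of all genes. That difference passed in 4 of 15 alternative fits (limma adjusted p down to 0.00988). These included the fits without wild-type replicate 3, with array weights and with a trend in eBayes, both limma options. The last raised every reading under the background of its array to the background level before the fit (adjusted p = 0.0216). It was chosen after seeing the data.

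Nefh (heavy chain, 1424847_at) read 9.32, 9.33 and 9.33 on the knockdown arrays. The empty vector arrays read 9.04, 8.56 and 9.21 and the wild-type arrays 8.86, 8.99 and 8.95, all of them below the knockdown arrays. The log2 difference was 0.39 against empty vector (SE 0.14, adjusted p = 0.0497) and 0.39 against wild-type (SE 0.14, adjusted p = 0.0405), each 1.31-fold higher. These calls were the least firm of the set. Without any 1 of the 3 knockdown arrays, or without empty vector replicate 1 or 2, the call against empty vector was lost, with adjusted p of 0.0595 to 0.135, and without empty vector replicate 2 the difference was 0.20. The call against wild-type was lost without any 1 of its 6 arrays, with adjusted p of 0.0629 to 0.111.

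Ina (alpha-internexin, 1418178_at) read 11.79, 11.82 and 11.76 on the knockdown arrays, 11.23, 11.08 and 11.21 with empty vector, and 10.78, 10.68 and 10.92 in wild-type. The groups stood in 3 separate steps, with knockdown highest and wild-type lowest. The knockdown was 0.62 above empty vector (SE 0.09, adjusted p = 0.000244, 1.53-fold higher) and 1.00 above wild-type (SE 0.09, adjusted p = 5.06e-06, 1.99-fold higher). The other probe sets, 1448991_a_at and 1448992_at, gave the same order of groups, at 0.67 (adjusted p = 0.00235) and 0.84 (adjusted p = 0.00248) above empty vector and at 1.30 and 1.53 above wild-type. Empty vector itself was 0.38 above wild-type (SE 0.09, adjusted p = 0.0488). In the main fit that call was the only one among the 5 genes for empty vector against wild-type, where 2% of all genes passed. The Ina call was lost without any 1 of the 6 arrays except wild-type replicate 3, with adjusted p of 0.0524 to 0.187.

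Prph (peripherin, 1420256_x_at) was low in the somatodendritic groups. It read 7.03, 7.13 and 7.31 on the knockdown arrays, 7.46, 7.33 and 7.25 with empty vector, and 7.55, 7.17 and 7.45 in wild-type, and all groups overlapped. The knockdown differed from empty vector by -0.19 (95% interval -0.44 to 0.06, adjusted p = 0.253) and from wild-type by -0.23 (95% interval -0.48 to 0.02, adjusted p = 0.139). Without wild-type replicate 2 the latter was -0.34 and passed (adjusted p = 0.0335), and with arrays centred on the pan-neuronal genes Prph passed as lower against both controls, with values given below. Against wild-type, the knockdown called 3 of the 5 genes (Nefh and Ina higher, Nefl lower), where 36% of all genes passed.

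**Figure D1:**
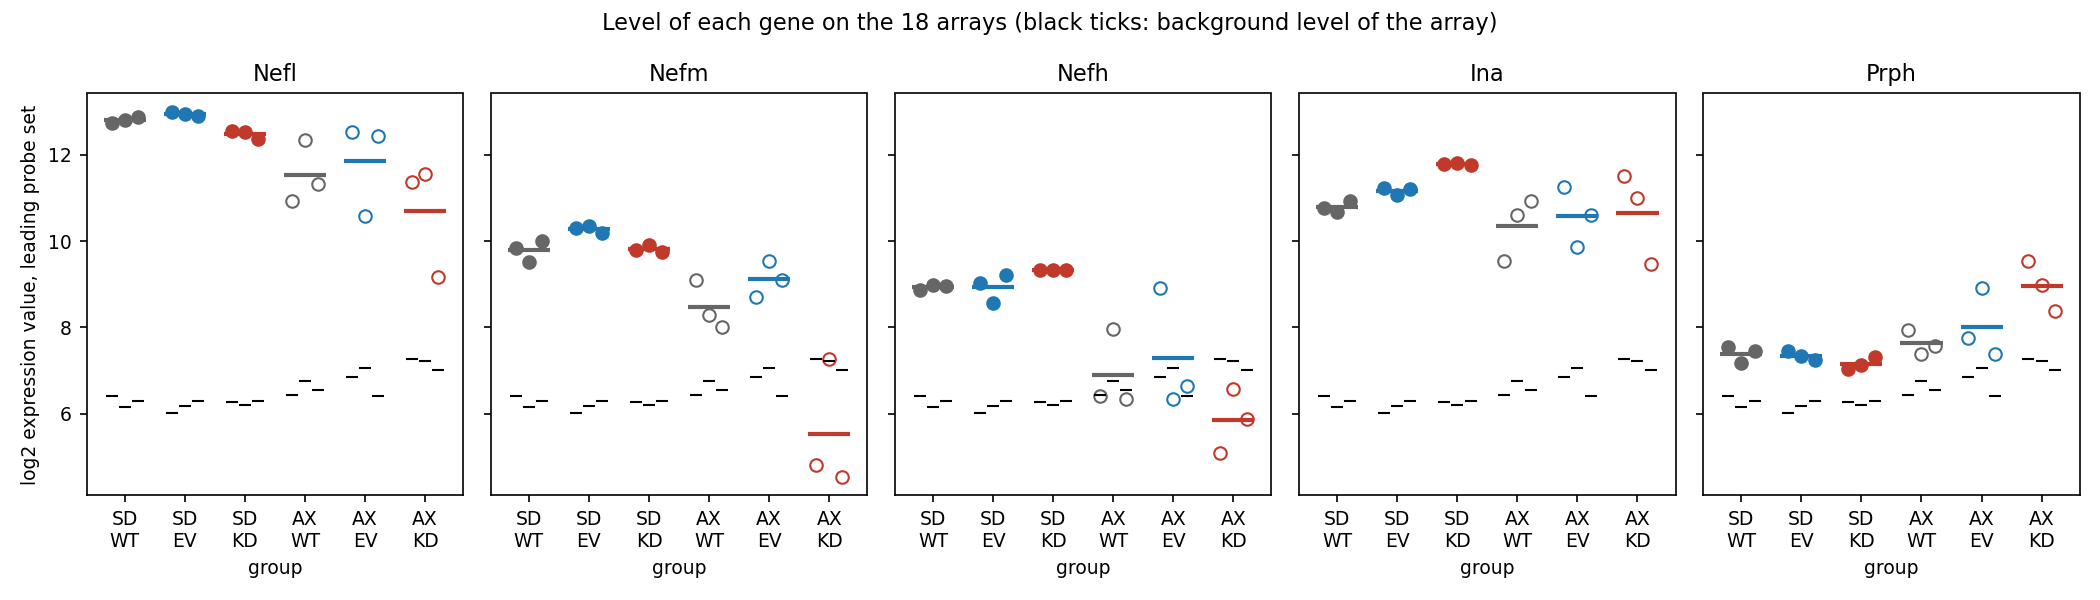
Log2 expression value of the leading probe set of each gene on every array, by group (SD, somatodendritic; AX, axonal; WT, wild-type; EV, empty vector; KD, Smn knockdown). Points are arrays, 3 in each group, coloured lines are group means, and short black ticks are the background level of each array. Somatodendritic points lie close together, axonal points spread widely, and 2 of the 3 axonal knockdown points of Nefm lie well under their background ticks.

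Because Nefl, Nefm and Ina are read on the same arrays, the change of one relative to another can be taken within each array, free of anything that shifts an array as a whole. Ina minus Nefl lay between -0.76 and -0.61 on the somatodendritic knockdown arrays and between -1.87 and -1.70 with empty vector, a shift of 1.08. On the axonal arrays the same shift was 1.24, from between -1.82 and -0.71 with empty vector to between -0.55 and 0.31 with knockdown. In both compartments the knockdown and empty vector arrays did not overlap. On the leading probe sets, Ina thus stood higher relative to Nefl on every knockdown array than on any empty vector array. In axons the other Ina probe sets were -0.88 and -0.45 against empty vector, beside 0.09 for the leading one. The second Nefl probe set was -1.78, beside -1.15, and none of these was called. The values of -0.45 and -1.78 take in knockdown replicate 3, which was under background on both probe sets. In axons every other pairing of an Ina with a Nefl probe set overlapped between knockdown and empty vector arrays. For example, Ina probe set 1448991_a_at read 10.81 on empty vector replicate 2, above the leading Nefl at 10.58. On all 3 knockdown arrays it read below the leading Nefl. The axonal separation thus held for the leading pair only. Against wild-type the shift was 1.32 in cell bodies, without overlap. In axons it was 1.15, and the wild-type arrays, at -1.75 to -0.40, overlapped the knockdown arrays (exact permutation p = 0.2, n = 3). Nefm minus Nefl had the same mean in somatodendritic knockdown and empty vector (-2.67 in both, exact permutation p = 1, n = 3), while wild-type, at -3.02, lay lower without overlap. No such difference is given for axonal Nefm, which was under background on 2 of 3 knockdown arrays. Of the 12 comparisons tested, all on leading probe sets, each non-overlapping one has the smallest p possible. For an exact 2-sided permutation test of 3 arrays against 3 this is 0.1 (0.15 after Benjamini-Hochberg adjustment over the 12), so none can pass 0.05.

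Axonal Nefm was the gene that stood farthest from its controls. It read 4.81, 7.27 and 4.53 on the axonal knockdown arrays, against 8.71, 9.54 and 9.09 with empty vector and 9.11, 8.29 and 8.01 in wild-type. Every knockdown array was below every control array, and knockdown replicates 1 and 3 were under their background levels of 7.26 and 7.01. Among all genes of its array Nefm stood at percentile 15.46, 64.98 and 10.44 in the knockdown and between 75.47 and 90.40 in the 6 axonal controls. The log2 difference from empty vector was -3.57 (SE 0.70). Since a level under background is only a bound, this is at least 3.82-fold lower when each knockdown array is given no less than its background level. Against wild-type the difference was -2.93 (SE 0.70), at least 2.45-fold lower. The axonal knockdown arrays stood apart from the other axonal arrays in more than Nefm. They had the fewest genes above background apart from empty vector replicate 2, and their correlation across genes with the somatodendritic controls was 0.539 to 0.712, against 0.705 to 0.884 for axonal empty vector and 0.814 to 0.891 for axonal wild-type arrays. Their part in the Nefm difference was not tested.

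Adjusted over all genes, the axonal Nefm differences did not pass, at adjusted p = 0.0719 against empty vector (limma, unadjusted p = 0.000755) and 0.0748 against wild-type. None of the 5 genes was called in either axonal knockdown comparison, in which 0.176% and 0.099% of all genes passed. At an unadjusted p under 0.05 the number was 1 of 5 against empty vector and 2 of 5 against wild-type (18.2% and 20.9% of all genes). Arrays that did not overlap, with the knockdown lower, were found for 8.43% of all genes against empty vector and 9.96% against wild-type. Knockdown replicate 2 was the only knockdown array with Nefm above background. Without it Nefm was -4.44 against empty vector (adjusted p = 0.0112) and -3.80 against wild-type (adjusted p = 0.0226). The knockdown readings left were all under background, so these values are not measured level differences. Leaving it out also raised the calls over all genes from 32 to 190 and from 18 to 116. In 1 fit to all 18 arrays, which takes the spread from both compartments, the adjusted p was 0.000576 and 0.00146, and adjusted p over all alternatives ran from 0.000576 to 0.191 against empty vector. With readings under background raised to the background level the differences were -1.93 (adjusted p = 0.0607) and -1.29 (adjusted p = 0.0587).

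Whether the knockdown acted differently on the compartments was tested as an interaction, the axonal difference between knockdown and empty vector minus the somatodendritic one. Nefm passed, at -3.11 (SE 0.74, limma adjusted p = 0.0253), and the other 4 genes did not. Over all genes 6.77% passed, and 2.56% of all genes passed in the lower direction. The value takes in axonal knockdown readings of Nefm that were above background on 1 of 3 arrays, so its size is not a measured level difference. With readings under background raised to the background level it was -1.47 (SE 0.35, adjusted p = 0.0286). The call rested on single arrays. Without axonal knockdown replicate 1 it was -2.75 with an adjusted p of 0.05 after rounding, just over the threshold, and without any 1 of the 6 somatodendritic knockdown and empty vector arrays the adjusted p was 0.0581 to 0.0668 with the difference between -3.14 and -3.07. With every array centred on the pan-neuronal genes it was -2.65 (adjusted p = 0.185). Between axonal empty vector and wild-type none of the 5 genes was called, nor at an unadjusted p under 0.05; over all genes limma called 0%, and 3.31% were at an unadjusted p under 0.05.

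Axonal Nefl read 11.37, 11.56 and 9.17 in the knockdown, 12.54, 10.58 and 12.43 with empty vector, and 10.93, 12.35 and 11.33 in wild-type. The knockdown arrays overlapped both controls. Its difference from empty vector was -1.15 (95% interval -2.92 to 0.63, adjusted p = 0.479). The second probe set read 10.23, 9.77 and 6.64 in the knockdown, and 11.15, 11.71 and 11.93 in wild-type, below which all 3 knockdown arrays lay. The 6.64 of knockdown replicate 3 was under its background level of 7.01. The difference from wild-type was -2.71 (SE 1.17, adjusted p = 0.246), at least 6.03-fold lower. Empty vector replicate 2 was low on this probe set too, at 8.21 beside 11.63 and 12.14. Axonal spread is the limit here: the SD of 3 arrays for Nefl was 0.04 to 0.10 in cell bodies and 0.73 to 1.33 in axons.

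Axonal Nefh was at background. It was above the background level on 1 of 3 wild-type, 2 of 3 empty vector and 0 of 3 knockdown arrays, with readings of 6.40, 7.97 and 6.33, then 8.91, 6.33 and 6.65, then 5.09, 6.57 and 5.88. No fold is given between these groups, and the log2 difference of knockdown from empty vector was -1.45 (SE 0.76, adjusted p = 0.361). The rise of Nefh seen in cell bodies had no counterpart that could be read here.

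Axonal Ina read 11.50, 11.01 and 9.47 in the knockdown, 11.25, 9.87 and 10.61 with empty vector, and 9.53, 10.60 and 10.93 in wild-type. The groups overlapped throughout. The difference from empty vector was 0.09, with a 95% interval from -1.33 to 1.5 that holds both the somatodendritic rise of 0.62 and a fall of the same size. The other Ina probe sets gave -0.88 and -0.45, neither called, the latter with knockdown replicate 3 under background.

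Axonal Prph read 9.54, 8.98 and 8.38 in the knockdown, 7.76, 8.91 and 7.38 with empty vector, and 7.95, 7.38 and 7.57 in wild-type. All 3 knockdown arrays were above the wild-type arrays, and empty vector replicate 2 lay among the knockdown arrays. The differences were 0.95 (SE 0.46, adjusted p = 0.322) from empty vector and 1.33 (SE 0.46, adjusted p = 0.155) from wild-type. The 4 axonal arrays with the highest Prph were, in the same order, the 4 with the highest background level, from 9.54 at a background of 7.26 down to 8.38 at 7.01, and they were also the 4 with the fewest genes above background. The part of background in the Prph reading was not tested. The other 3 Prph probe sets were below background on all 18 arrays, with readings between 3.19 and 6.54, so the leading one had no second reading to stand beside it.

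**Figure D2:**
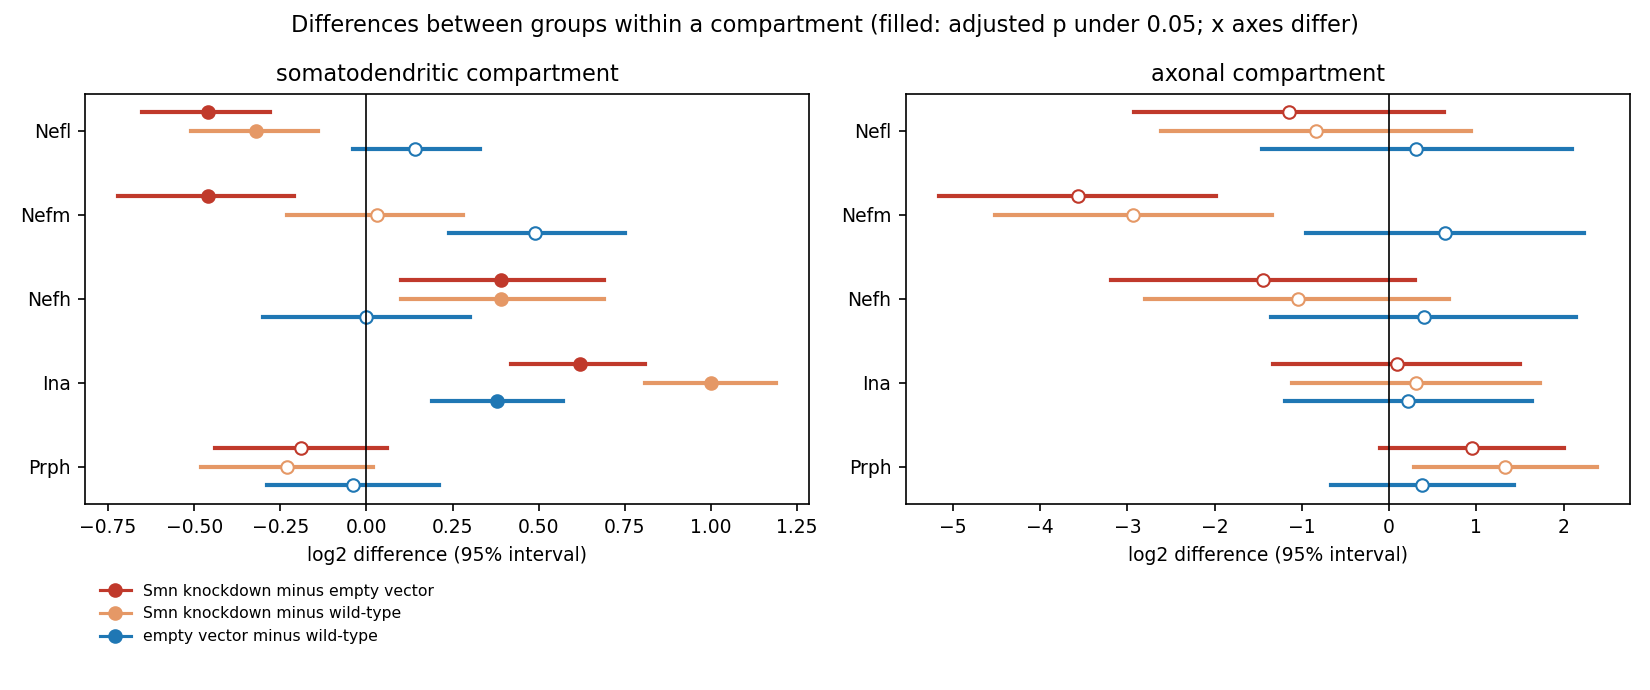
Log2 differences between groups of the same compartment for the leading probe set of each gene, with limma's 95% intervals. The left panel is the somatodendritic and the right panel the axonal compartment, and their x axes differ in scale. Filled points passed an adjusted p of 0.05, which 4 of 5 genes did for knockdown minus empty vector in cell bodies and none did in axons, where the intervals are several times wider.

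**Figure D3:**
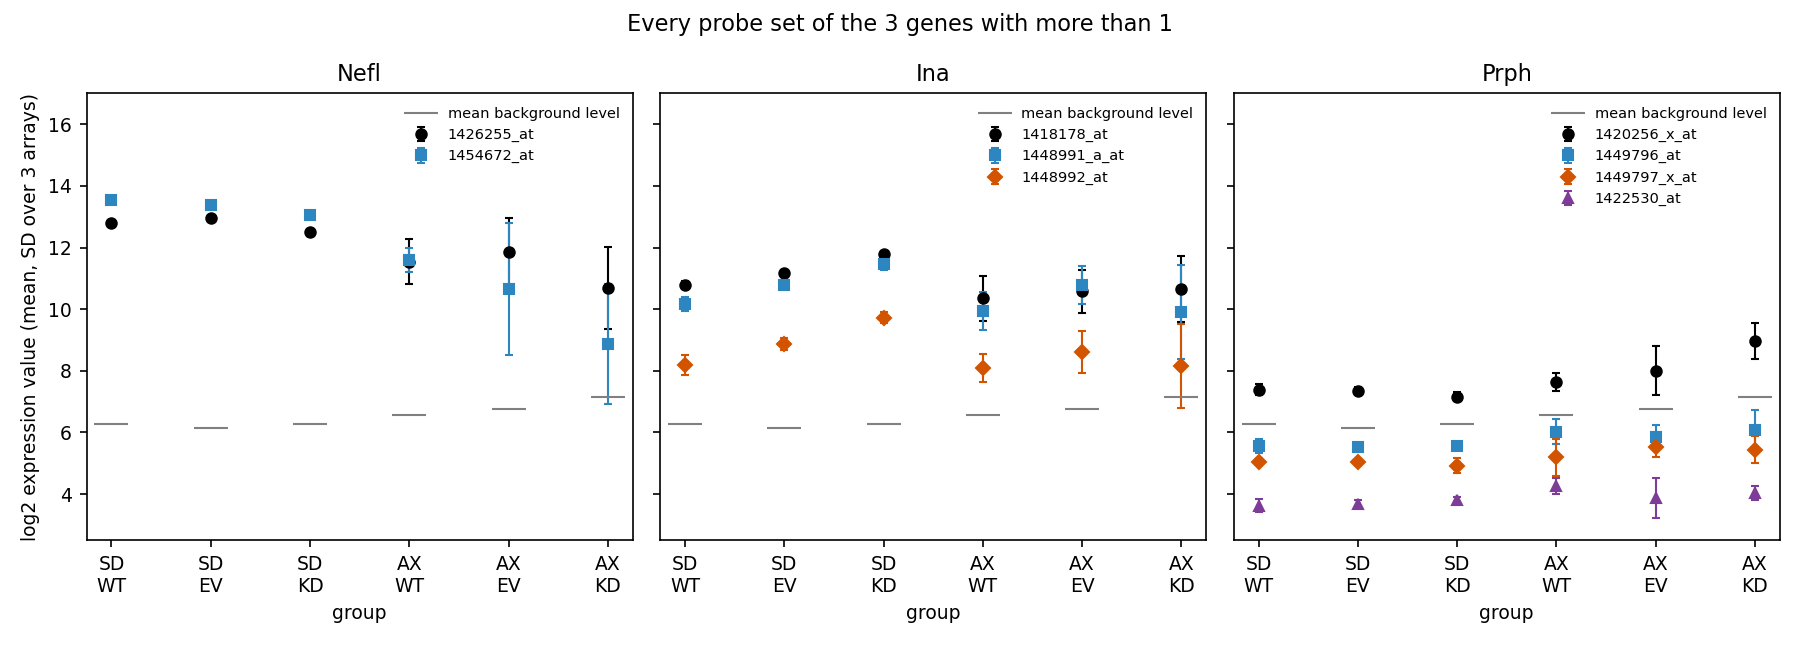
Group means of every probe set of Nefl, Ina and Prph on the log2 scale, with SD over 3 arrays (SD, somatodendritic; AX, axonal; WT, wild-type; EV, empty vector; KD, Smn knockdown). Grey bars are the mean background level of the group. The 3 Ina probe sets step upward together from wild-type to knockdown in cell bodies, while 3 of the 4 Prph probe sets stay under the background in every group.

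Between the compartments, the means of all 4 neurofilament genes were lower in axons and that of Prph higher, and only some of these differences passed. Fewer axons and less RNA per axon cannot be told apart in such samples, and the authors' values had been brought to a common distribution separately for each compartment, so these differences are relative to the other genes of the array. The median over all genes was 0.167 in wild-type, 0.17 with empty vector and 0.13 in the knockdown (axonal minus somatodendritic, log2). Levels of RNAs retained in the nucleus are given for both sides with the markers above, and the part of cell body RNA was not tested.

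In wild-type cultures the axonal minus somatodendritic difference was -1.27 for Nefl (SE 0.58, adjusted p = 0.105) and -1.32 for Nefm (SE 0.53, adjusted p = 0.0692). All axonal arrays of both genes were below all somatodendritic ones, as they were for 26.9% of all genes. Nefh was -2.03 (SE 0.58, adjusted p = 0.0203), at least 3.86-fold lower in axons. In this fit it was the only 1 of the 5 genes to pass, where 29.1% of all genes did. With readings under background raised to the background level Nefm passed as well (adjusted p = 0.00134). The Nefh call above was lost without axonal wild-type replicate 1 or 3 or any 1 somatodendritic wild-type array (adjusted p of 0.0525 to 0.0679). With the array number as a block, Nefm and not Nefh was called, here and with empty vector, as given at the end. Ina at -0.44 (SE 0.46, adjusted p = 0.454) and Prph at 0.25 (SE 0.34, adjusted p = 0.576) overlapped between the compartments.

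With empty vector the pattern was similar in size, with Nefl at -1.10 (SE 0.58, adjusted p = 0.133), Nefm at -1.17 (SE 0.53, adjusted p = 0.0832), Ina at -0.60 and Prph at 0.67. Nefh was again the only gene called, at -1.64 (SE 0.58, adjusted p = 0.0366), at least 2.63-fold lower, though its arrays overlapped, where 42% of all genes passed. Nefm again passed as well with readings under background raised (adjusted p = 0.003). Without any 1 of the 5 arrays axonal replicates 2 and 3 and somatodendritic replicates 1 to 3 the Nefh call was lost (adjusted p of 0.0559 to 0.152). The second Nefl probe set passed here, at -2.72 (SE 0.89, adjusted p = 0.0258).

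In the knockdown all 5 genes separated the compartments, where 61.7% of all genes passed. Nefm was -4.28 (SE 0.53, adjusted p = 1.6e-05), at least 6.23-fold lower in axons. Nefh was -3.48 (SE 0.58, adjusted p = 0.00018), at least 4.49-fold lower. Nefl was -1.79 (SE 0.58, adjusted p = 0.0162), 3.45-fold lower, and Ina was -1.13 (SE 0.46, adjusted p = 0.0457), 2.19-fold lower. Both of these last calls leaned on axonal knockdown replicate 3, without which Nefl was -1.02 (adjusted p = 0.0843) and Ina -0.53 (adjusted p = 0.249). Leaving out any 1 somatodendritic knockdown array also ended the Ina call (adjusted p of 0.0864 to 0.0938).

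Prph was the exception in direction, 1.81 higher in knockdown axons than in knockdown cell bodies (SE 0.34, adjusted p = 0.000468), or 3.51-fold. The name of this probe set ends in _x_at, which marks probes that may cross-hybridize. The other Prph probe sets, all at background, gave 0.51, 0.53 and 0.23, none called. The background level itself was 7.01 to 7.26 on the axonal knockdown arrays and 6.21 to 6.30 on the somatodendritic ones. Relative to the mean of the pan-neuronal genes, which was 10.69 ± 0.06 (SD, n = 3) in knockdown cell bodies and 9.21 ± 0.76 in knockdown axons, Ina no longer stood lower in knockdown axons (0.35), and Nefl was -0.31 (adjusted p = 0.547).

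**Figure D4:**
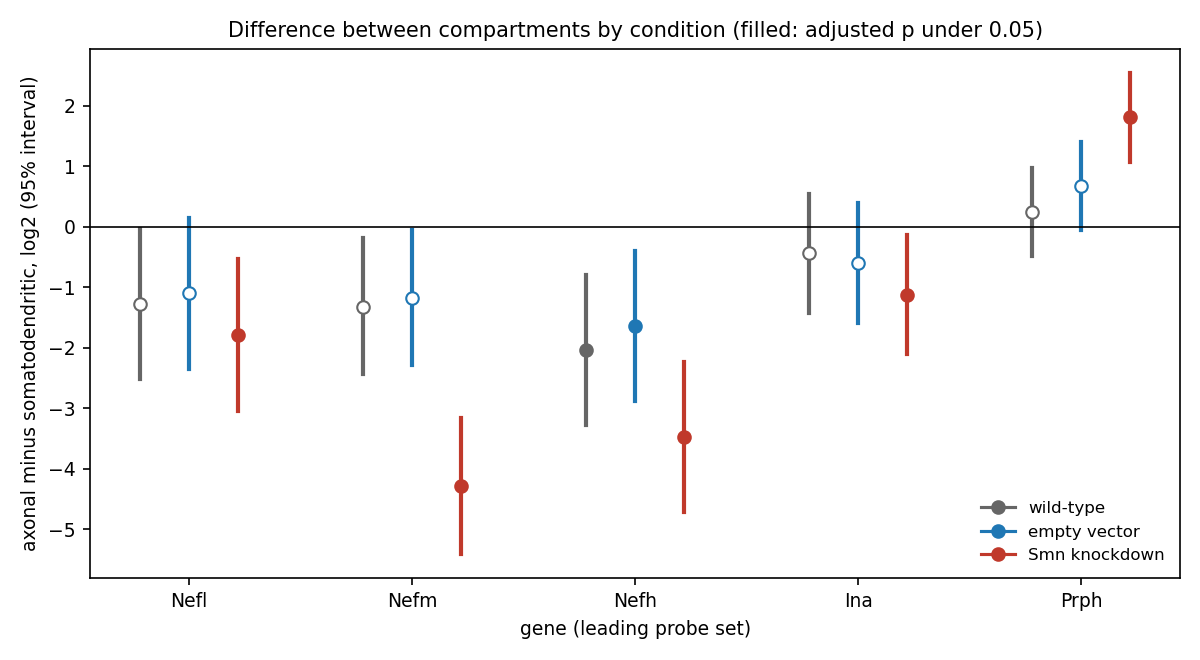
Axonal minus somatodendritic log2 difference of the leading probe set of each gene in wild-type, empty vector and Smn knockdown cultures, with limma's 95% intervals. Filled points passed an adjusted p of 0.05. The knockdown point of Nefm, at -4.28, lies below the wild-type and empty vector points at -1.32 and -1.17, and Prph lies above 0 in all 3 conditions.

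The order of the group means differed by gene. For Nefl, the somatodendritic groups of empty vector, wild-type and knockdown stood in that order with no overlap, and the axonal groups followed with overlapping arrays. On the second Nefl probe set wild-type, at 13.55, stood above empty vector, at 13.37, also without overlap, with knockdown again lowest at 13.07. For Ina the somatodendritic order was knockdown, empty vector and wild-type, also without overlap, and every later neighbour overlapped. For Nefm, somatodendritic empty vector stood apart at the top and axonal knockdown apart at the bottom, while the 4 groups between them each overlapped the next. For Nefh only somatodendritic knockdown stood apart from its neighbour. For Prph every group overlapped the next.

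RefSeq promoter sequence was at hand for Prph and Ina. It is shown because the leading probe sets of these genes differ in where they read highest in the knockdown, Ina in cell bodies and Prph in axons. For Prph this rests on that 1 probe set, as the other 3 were below background on all arrays. Any relation of the sequences to the levels was not tested. The sequences are the 120 bases before a RefSeq start on the plus strand of GRCm38.p6, at chr15:99055054-99055173 for Prph and chr19:47014561-47014680 for Ina. The Prph window lies inside the span annotated for the gene, which begins at 99053579. The start it precedes is thus not the first base of that span, unlike for Ina. Capitals mark TATAAA on the gene's strand and GGGCGG on either strand (CCGCCC where it lies on the other strand).
Prph: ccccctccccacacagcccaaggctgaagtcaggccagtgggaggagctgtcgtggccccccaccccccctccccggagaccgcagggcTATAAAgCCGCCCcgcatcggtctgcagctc
Ina: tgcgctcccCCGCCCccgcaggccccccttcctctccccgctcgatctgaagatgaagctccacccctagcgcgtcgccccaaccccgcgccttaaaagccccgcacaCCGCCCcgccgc
The Prph stretch holds 1 TATA motif, which begins 31 bases before the start, and 1 GC motif next to it. The Ina stretch holds no such TATA motif and 2 copies of the GC motif. The former is present in 4.19% and the latter in 26.5% of the 32851 promoter windows of the same length. The cAMP response element TGACGTCA, searched on both strands, is in neither and in 1.24% of all windows. G and C make up 70.8% of the Prph and 73.3% of the Ina stretch, which hold 6 and 14 CpG dinucleotides. Nefl and Nefm lie on the same chromosome with 1 annotated gene between them (Gm19216), which is not protein-coding.

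The other genes around neurofilaments were taken from 4 lists. Of 11 other intermediate filament genes, 3 fell in knockdown cell bodies against empty vector and none rose, where 28% of all genes passed, with a median of -0.06. They were Synm, which encodes synemin (-0.58, SE 0.14, adjusted p = 0.00922), Vim, vimentin (-0.57, SE 0.15, adjusted p = 0.0118), and Gfap, the filament of astrocytes (-0.77, SE 0.24, adjusted p = 0.0295). Nes, nestin of neural precursors, was -0.19 (adjusted p = 0.157). In axons none was called, and the lowest p belonged to Krt8 (0.78, adjusted p = 0.134, at background in both groups) and the lamin gene Lmna (0.88, adjusted p = 0.245). The fall of Vim and Gfap came beside lower glial markers. Of 7 astrocyte markers 5 fell and none rose, Gfap among those listed, and their mean level was 8.84 in the knockdown, 9.55 with empty vector and 9.53 in wild-type. Of 6 oligodendrocyte lineage markers 4 fell and none rose, with mean levels of 8.03, 9.24 and 9.41. The part of glial content in the filament genes' differences was not tested.

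Of 10 linkers and motors of neurofilaments, 2 rose in knockdown cell bodies and none fell, beside the same 28% of all genes, with a median of 0.09. Kif5b, a kinesin heavy chain, rose by 1.09 (SE 0.13, adjusted p = 4.98e-05), and Dync1h1, the heavy chain of cytoplasmic dynein, by 0.73 (SE 0.14, adjusted p = 0.00213). The neuronal kinesin Kif5a was -0.38 (adjusted p = 0.0872) and the cytolinker Dst, dystonin, -0.36 (adjusted p = 0.15). In axons none was called. The lowest p belonged to Dst, at -2.06 (SE 1.01, adjusted p = 0.326), and to plectin, Plec, at -1.57 (adjusted p = 0.545).

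Of the enzymes that act on neurofilaments 7 were analysed here. In knockdown cell bodies 2 rose and 2 fell, again beside 28% of all genes called in either direction. The kinase Gsk3b fell by 0.63 on the log2 scale (SE 0.09, adjusted p = 0.00018) and Rock1 by 0.54 (adjusted p = 0.0085), while Mapk8, also called JNK1, rose by 0.52 (adjusted p = 0.00135) and Cdk5r1, the p35 activator of Cdk5, by 0.47 (adjusted p = 0.00183). In axons none was called, although the median of the 7 was -1.30 beside 0.057 over all genes. Gsk3b was -2.46 there (SE 0.99, adjusted p = 0.24), above background on 1 of 3 knockdown and 3 of 3 empty vector arrays, and the phosphatase subunit gene Ppp2ca was -1.30 (adjusted p = 0.297).

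Of neurofilament turnover and mRNA binding 4 genes were analysed here, and none was called in knockdown cell bodies. Trim2, a ubiquitin ligase for the light chain, was 0.17 at adjusted p = 0.153, the lowest of the list. Uchl1 was -0.27 (adjusted p = 0.348), and Tardbp, whose product TDP-43 binds the Nefl mRNA, was 0.02 (adjusted p = 0.906). In axons Trim2 was -2.07 (SE 1.47, adjusted p = 0.498) and the chaperone Hspb1 -0.15 (adjusted p = 0.847).

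Other measures moved with the groups. The mean of the pan-neuronal markers was 10.25 in wild-type, 10.46 with empty vector and 10.69 in knockdown cell bodies, the same order as Ina. The list did not move as one: against empty vector 3 of the 10 markers were called higher in the knockdown (Gap43, Syp and Elavl3) and 2 lower (Rbfox3 and Map2), and against wild-type 5 and 2. Over all genes 28% and 36% passed in these comparisons. Relative to that mean, Ina was 0.55 ± 0.11 (SD, n = 3), 0.71 ± 0.07 and 1.10 ± 0.04 in these groups, and Nefl was 2.56 ± 0.12, 2.49 ± 0.03 and 1.80 ± 0.04. On this scale the knockdown arrays stayed apart from all controls for both genes, Ina above and Nefl below. The scale shifts the median of all genes by -0.24 for knockdown against empty vector and by -0.48 against wild-type, and it changes the share of higher among all calls from 44.6% to 12.51% and from 43.3% to 5.97%. Against wild-type it turned the value of Nefh to -0.05 and made Nefm a call at -0.41 (adjusted p = 0.00495). It also made Prph a call, at -0.42 against empty vector (adjusted p = 0.0102) and -0.67 against wild-type (adjusted p = 0.000162). Markers of microglia and macrophages averaged 7.81 in wild-type, 5.83 with empty vector and 8.32 in the knockdown. All 8 were called higher in knockdown than with empty vector, where 28% of all genes passed in either direction. Of these, Aif1 and Itgam did not count as above background in the knockdown, and Itgam was below background on all 18 arrays. Gapdh, read at its 3' minus its 5' end as a measure of RNA length after amplification, was 3.11 to 3.61, 3.53 to 3.68 and 3.99 to 4.12 in the same groups. The part of microglia and of RNA length in the members' differences was not tested.

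Genes whose pattern was most like each member were sought among 9838 genes above background in the mean. Over the 18 arrays, Nefl was most like Exoc6b, an exocyst subunit gene (Pearson r = 0.978), Map7d2 (0.967) and Hdac2 (0.949). Nefm was most like Herc2 (0.976), Ppp1r21 (0.975) and Rbm25 (0.971), and Nefh like Psmd1 (0.96), Elovl4 (0.96) and Stx12 (0.959). For Ina the nearest were Celf5 (0.919), Mapre1 (0.904) and Gng3 (0.898), and for Prph Megf6 (0.974), Phf19 (0.973) and Cd79a (0.973). These values describe arrays that share compartment and quality, and no test was made. Over the 9 axonal arrays alone, Exoc6b (0.962) and Map7d2 (0.952) were again among the 3 nearest to Nefl, after Magel2 (0.982), and Rbm25 (0.978) was the nearest to Nefm. Over the 9 somatodendritic arrays the nearest were other genes for every member, such as Trim3 for Ina (0.995) and Trp53rkb for Nefl (0.985).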

How the data were processed

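The authors deposited log2 expression values for 45101 probe sets on 18 arrays. The software behind these values is not given in the sources used. Sorted values differed by at most 0.0048 among somatodendritic and 0.0125 among axonal arrays, so the compartments had been normalized apart. Control probe sets (64) and probe sets with a missing value (11) were left out. Genes were named by the platform annotation, in which 34958 probe sets name 1 gene, 932 several and 9211 none, and the probe set with the highest mean stood for its gene. Tests used lmFit and eBayes of limma 3.58.1 under R 4.3.3, with Benjamini-Hochberg adjustment over all 18191 genes, on 9 arrays within a compartment and on 18 between compartments and for the interaction. The script was tested on simulated shifts. Depth has no counterpart on arrays other than signal over background, and 3 arrays per group limit the precision.

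A fold given as "at least" takes, on each array of the dim group, the higher of its reading and the background level; no fold is given where both groups were at background. The members and lists were chosen with earlier results of these data known. Named were all 5 members with every probe set, up to 4 genes per list with the lowest p in the somatodendritic and up to 2 in the axonal comparison of knockdown with empty vector, and the 3 genes nearest to each member. Marker genes and Smn1 came beside them as checks, and a few of the markers were named after their values were seen. Promoters came from a RefSeq table that held 2 of the 5 members, Prph and Ina. Titles of control arrays carry a number that recurs in each control group of both compartments, and what it stands for is not stated. The main fits did not pair arrays by it. Same-numbered control arrays gave 18 correlations of their deviations from group means, from -0.19 to 0.23, with 1 over 0.1. With 3 arrays in each group such values cannot show that the arrays were unpaired. Alternatives left out each array, used other probe sets or filters, eBayes with a trend, array weights, other scalings, 1 fit to all arrays, the array number as a block and, added after seeing the data, readings under background raised to the background level.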

Additional observations from a re-analysis of the deposited data

Results flagged for a closer look

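In the main fit Nefm differed between the compartments in its response to the knockdown, a call lost in 8 of 23 alternatives (limma adjusted p up to 0.185). These were the fits without axonal knockdown replicate 1, without any 1 somatodendritic knockdown or empty vector array, and with centring on the pan-neuronal genes. The axonal difference between knockdown and empty vector was lower than the somatodendritic one by a log2 value of -3.11 (limma interaction, adjusted p = 0.0253). Nefm read -3.57 in axons and -0.46 in cell bodies, and in both all 3 knockdown arrays lay below all 3 empty vector arrays. The axonal knockdown reading was above background on 1 of 3 arrays, so the axonal value is not a measured level difference. With readings under background raised to the background level, a choice made after seeing the data, the interaction was -1.47 (adjusted p = 0.0286). The axonal knockdown arrays also correlated less with the somatodendritic controls, at 0.539 to 0.712, than axonal wild-type arrays did, at 0.814 to 0.891, and the part of this in the Nefm value was not tested. With wild-type as the control in both compartments, also chosen after seeing the data, the value was -2.96 (adjusted p = 0.0213). Groups of 3 arrays are too small for a test of single arrays that stand apart.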

How the results depend on the processing

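Of 805 alternative values for 50 gene results, 705 stayed on the same side of the threshold with their direction where called, 72 lost and 25 gained a call, and 3 turned direction. Direction was read only where a value was called, and 43 uncalled values changed sign. The 3 turned with arrays centred on the pan-neuronal genes: Nefm (-0.41) and Nefh (-0.05) in the somatodendritic knockdown against wild-type, and Ina (0.35) in knockdown axons against cell bodies.

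The number of the 5 genes called moved as follows. In 1 fit to all 18 arrays, where the wider axonal spread enters, it was 0 in place of 4 for somatodendritic knockdown against empty vector, 0 in place of 3 against wild-type, 0 in place of 1 for empty vector against wild-type, and 1 and 2 in place of 0 for axonal knockdown against empty vector and wild-type. Leaving out 1 array at a time gave 0 to 2 for somatodendritic empty vector against wild-type, 0 to 1 for each axonal knockdown comparison, 0 to 1 for axons against cell bodies in wild-type and with empty vector, 3 to 5 in the knockdown, and 0 to 2 for the interaction. Centring on pan-neuronal genes gave 0 for somatodendritic empty vector against wild-type, 3 for axons against cell bodies in the knockdown and 0 for the interaction. This centring took the share of higher among all calls from 24.2% to 1.22% for somatodendritic empty vector against wild-type, from 51.2%, 56.6% and 55.1% to 92.9%, 91% and 88% for axons against cell bodies in wild-type, with empty vector and in the knockdown, and from 62.2% to 8.7% for the interaction. Quantile normalization of all 18 arrays, and scaling of each array to its median and SD, each gave 0, 0 and 3 for axons against cell bodies in wild-type, with empty vector and in the knockdown, and the latter a share of higher calls of 37.3% in wild-type. Array weights gave 3 for axons against cell bodies in wild-type and 2 for somatodendritic empty vector against wild-type, as did eBayes with a trend (2), while leaving out cross-hybridizing probe sets gave 0. The second probe set gave 2 for axons against cell bodies with empty vector. Without axonal knockdown replicate 1 and axonal empty vector replicate 2, chosen after seeing the data, that comparison gave 0 and the interaction 2. Readings under background raised to the background level, also chosen after seeing the data, gave 2 in place of 1 for somatodendritic empty vector against wild-type and for axons against cell bodies in wild-type and with empty vector, each time with Nefm as the gain. Over all genes this raising gave 620 calls in place of 364, and 12488 in place of 7632, for the first and last of these, and 13 in place of 32 and 189 in place of 18 for axonal knockdown against empty vector and wild-type.

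The array number as a replicate block, run for the comparisons of controls, gave 0 calls for somatodendritic empty vector against wild-type (Ina adjusted p = 0.15). For axons against cell bodies it called Nefm and not Nefh, in wild-type (adjusted p = 0.0245 and 0.0534) and with empty vector (0.0259 and 0.0771).

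Signal over background limits axonal Nefh, axonal knockdown Nefm and 3 of the 4 Prph probe sets. It also limits axonal knockdown replicate 3 on the second Nefl probe set and on Ina probe set 1448992_at.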
